A study of Mus musculus with 7 samples.

Results

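Of 8917 nuclei kept from the single-nucleus RNA sequencing (snRNA-seq) of cultured BB-p53n OPCs, 1460 were chosen here because 12 DNA replication genes took a high share of their transcripts while 6 mitotic genes took a low share. The S share of a nucleus is the sum of *Mcm2*, *Mcm3*, *Mcm4*, *Mcm5*, *Mcm6*, *Mcm7*, *Pcna*, *Gins2*, *Cdc6*, *Dtl*, *Ccne2* and *Rrm2* over all its unique molecular identifiers (UMIs, which tag each captured transcript), and the M share is the same for *Cdc20*, *Cenpf*, *Cenpe*, *Ccnb1*, *Aurka* and *Plk1*. The chosen nuclei lie in the top 20% of S share and in the bottom 50% of M share, and are called S-high M-low nuclei below. The deposited library held 10047 barcodes, of which those with 2000 to 8000 detected genes were kept. BB-p53n OPCs start as oligodendrocyte progenitor cells (OPCs) of the mouse brain, selected by their surface PDGFRα (CD140a). The donors were young C57BL/6 pups, male and female, whose *Trp53* alleles are floxed (*Trp53* fl/fl). In culture the cells received a retrovirus, PDGFB-IRES-CRE, that carries both the growth factor PDGFB and the Cre that deletes *Trp53*. Every nucleus compared here carries this treatment, comes from cultured cells and belongs to 1 library, and OPCs without the deletion or the virus were not analysed here, nor were the 3 early and 3 late tumor samples of the series. Without a replicate library no difference could be tested, every 95% interval (exact Poisson for counts, exact binomial for shares) covers counting error only, and every difference between the chosen and the other nuclei describes this library.

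Before a cell copies its DNA, the origin recognition complex, CDC6 and CDT1 load the MCM helicase onto origins. Cyclin E with CDK2 and the release of E2F factors from RB then drive entry into S phase, when the helicase with CDC45 and GINS opens the DNA, primase and the polymerases copy it on the PCNA clamp, and histones are made to package it. Transcripts of the licensing and cyclin E genes are known to peak around the G1/S border, those of the replication-dependent histones within S phase, and those of the mitotic genes in G2 and M. OPCs are the dividing precursors of oligodendrocytes in the brain, and PDGF is their main mitogen.

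The values that chose these nuclei are given as a description. The S share threshold was 1818 CPM (counts-per-million, here UMIs of the S genes scaled to the total of the nucleus), with the lowest chosen nucleus at 1817.62 and the highest nucleus with a low M share below the threshold at 1817.47. The M share threshold was 608 CPM, and the first nucleus with a high S share above it stood at 609. Of the 1784 nuclei with a high S share, 81.8% had a low M share, against 42.04% of the nuclei below the S threshold. The shares rest on few UMIs, with a median of 28 UMIs of the 12 S genes per chosen nucleus (range 7 to 102) and 15 in the other nuclei (0 to 84). The median for the 6 M genes was 3 UMIs, and 196 of the chosen nuclei (13.4%) had none.

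**Figure D1:**
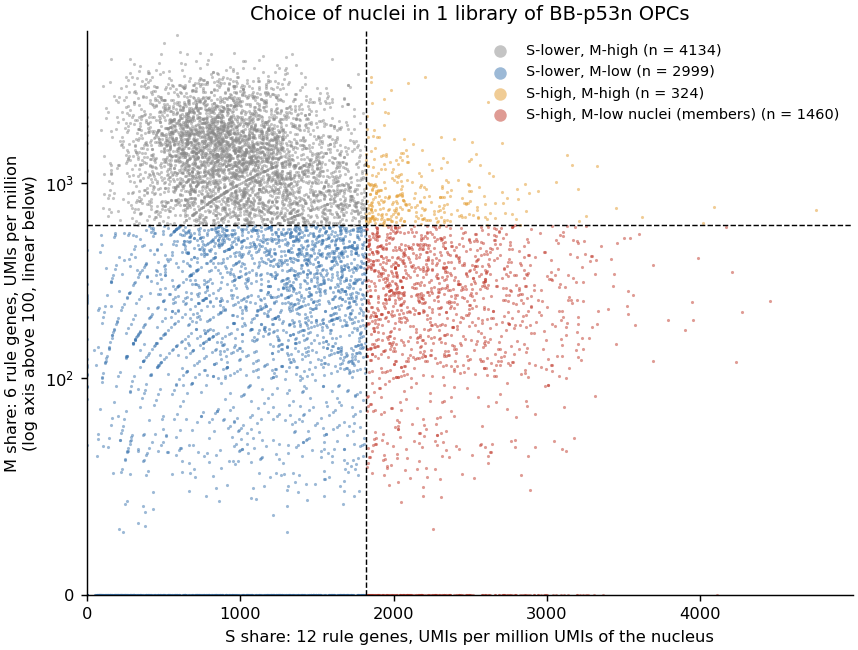
S share (x axis, linear) and M share (y axis, logarithmic above 100 and linear below), in CPM of a nucleus. Each point is 1 of 8917 nuclei, dashed lines mark both thresholds, and the 1460 chosen nuclei lie at the lower right beside 324 S-high M-high, 2999 S-lower M-low and 4134 S-lower M-high nuclei.

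The chosen nuclei were not deeper than the rest. Their median was 12031 UMIs (quartiles 9345 and 15809) and 4452 genes, against 14116 UMIs and 4777 genes in the other nuclei. The 2999 nuclei with a low M share and an S share below the threshold, called S-lower M-low nuclei below, had nearly the same median of 12102 UMIs, and the 4134 S-lower M-high nuclei a median of 16349 UMIs. Thinned to 5000 UMIs, chosen and other nuclei had medians of 2606 and 2593 genes. The mitochondrial share of UMIs was 6.15% in the chosen nuclei and 6.37% in the others. Nuclei chosen by the same rule after thinning to 5000 UMIs numbered 1399, of which 1036 were also chosen at full depth. For part of the nuclei, membership thus depended on which UMIs were drawn, and how near the thresholds these lay was not measured.

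Each of the 12 S genes, whose sum chose the nuclei, was higher in the chosen nuclei than in the others, but unequally. Levels are in CPM, with the UMIs of a gene and all UMIs each summed over a group of nuclei. *Ccne2* (cyclin E2; GRCm39 chromosome 4 from 11190303 to 11204947, plus strand) stood at 91.8 CPM in the chosen nuclei and 23.3 CPM in the others, or 3.94 times (3.71 to 4.18). *Cdc6*, the licensing factor, followed at 96.6 against 27 CPM, or 3.58 times (3.38 to 3.79). *Dtl* (the substrate receptor of a ubiquitin ligase that acts at PCNA; chromosome 1 from 191269468 to 191307669, minus strand) was at 205 against 87.7 CPM, and *Mcm6* (a helicase subunit; chromosome 1 from 128259311 to 128287516, minus strand) at 236 against 109 CPM. *Mcm7* had the smallest ratio of the 12, at 1.7.

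The same genes were also measured on UMIs that had not chosen the nuclei. When the nuclei were chosen on a random 50% of the UMIs of each nucleus, the remaining UMIs gave ratios between 1.49 (*Mcm7*) and 3.2 (*Ccne2*) for the 12 genes. *Mcm6*, *Dtl* and *Ccne2*, the markers named for these nuclei, then had ratios of 1.82, 1.99 and 3.2, and the 6 M genes between 0.227 and 0.344. When a gene was left out of its own S share, the ratio was 3.34 (3.14 to 3.55) for *Ccne2*, 3.08 (2.9 to 3.26) for *Cdc6* and 1.85 (1.79 to 1.92) for *Mcm6*, and 1.52 for the lowest, *Mcm7*. Each of the 12 was higher in nuclei picked without it, although by less than when it took part in the choice. The other S genes of the rule still picked those nuclei, so these ratios describe the choice.

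In single nuclei thinned to 5000 UMIs, which left out 20 chosen and 137 other nuclei, *Mcm6* had a UMI in 69.7% of the chosen nuclei (95% exact binomial interval 67.2 to 72) and in 40.4% of the others (39.3 to 41.6). *Ccne2* had one in 36.4% and 10.9%, and *Dtl* in 63.3% and 33.1%. Unthinned, these shares were 91.6% and 72.8% for *Mcm6*, 63.6% and 27.1% for *Ccne2*, and 87% and 63% for *Dtl*. The share that free RNA alone would give was not measured, because the library offers no cell type in which these genes should be silent.

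Against the 324 nuclei with a high S share and a high M share, called S-high M-high nuclei below, the 12 genes differed among themselves. *Cdc6* and *Dtl* were higher in the chosen nuclei, at 1.71 and 1.46 times the level of the S-high M-high nuclei. *Rrm2*, a subunit of ribonucleotide reductase, *Pcna* and *Mcm7* stood at 0.847, 0.919 and 0.954 times.

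Replication genes that the rule did not use were also higher. The 84 genes of 4 lists written for this work (origin licensing and firing, polymerases and fork, nucleotide synthesis, and chromatin assembly and maintenance) summed to 11343 CPM in the chosen nuclei and 8513 CPM in the others, or 1.33 times (1.33 to 1.34). They stood at 8136 CPM in the S-lower M-low nuclei, at 8547 CPM in the S-lower M-high nuclei and at 11114 CPM in the S-high M-high nuclei. In single nuclei the middle 50% of the chosen nuclei lay between 10216 and 12581 CPM for the summed list and that of the others between 7217 and 9784, so that the lower quartile of the chosen nuclei stood above the upper quartile of the others. Of the 84 genes, 39 were at least 1.5 times higher in the chosen nuclei and none was at least 1.5 times lower, with a median ratio of 1.46. Of all 10745 genes with at least 5 CPM outside the rule, 2.2% were at least 1.5 times higher and 1.35% at least 1.5 times lower, with a median ratio of 0.996. Against the S-high M-high nuclei the summed list was at 1.02 times (1.01 to 1.03), and 1 of the 84 genes was at least 1.5 times higher, where 1.42% of all genes were.

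Among the licensing and firing genes, 8 of 20 were at least 1.5 times higher, and the list as a whole was at 1.36 times (1.34 to 1.38). *Cdt1*, which loads the helicase with CDC6, was at 66.5 CPM in the chosen nuclei and 31.9 CPM in the others, or 2.08 times (1.95 to 2.22), and *Gmnn*, whose product geminin inhibits CDT1, was at 129 against 79.5 CPM. *Cdc45* and *Mcm10*, which act when the helicase is switched on, had ratios of 1.9 and 1.82. Of the origin recognition complex, *Orc6* (1.59) and *Orc1* (1.49) were furthest from 1, while *Orc3*, *Orc4* and *Orc5* lay between 0.948 and 1.1. The kinase that fires origins and its activator differed, with *Cdc7* at 1.58 and *Dbf4* at 0.727. *Dbf4* stood at 132 CPM in the S-lower M-high nuclei and 52.1 CPM in the S-lower M-low nuclei, so that against the latter the chosen nuclei, at 76 CPM, were 1.46 times higher.

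The fork genes had the largest summed ratio of the 4 lists, at 1.63 times (1.62 to 1.64), and 19 of 29 were at least 1.5 times higher. *Pola1*, the catalytic subunit of the polymerase that starts each strand, was the most abundant at 500.1 CPM in the chosen nuclei and 293 CPM in the others, or 1.7 times (1.67 to 1.74). The other subunits of that enzyme, *Pola2*, *Prim1* and *Prim2*, were at 1.85, 1.73 and 1.71 times. *Clspn*, whose product claspin ties the fork to the checkpoint, was at 2.08 times (2.0 to 2.16), and *Dna2*, a nuclease and helicase that trims Okazaki fragments, at 2.2 times (2.04 to 2.37). *Dscc1*, a subunit of the clamp loader for cohesion, had the highest ratio of the list, 2.5 times (2.3 to 2.72), at 39.7 CPM in the chosen nuclei. Lagging-strand genes were also higher, with *Fen1* at 1.66 and the ligase *Lig1* at 1.73 times. The lowest ratios were those of *Rnaseh2b* (1.15), *Rfc5* (1.18) and *Pold2* (1.2).

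Of the nucleotide genes, 5 of 18 were at least 1.5 times higher. Among these were *Tyms* (1.78), which makes thymidylate, *Tk1* (1.65) and *Dck* (1.65), kinases that salvage nucleosides, and *Dut* (1.53), which removes dUTP. The genes of purine synthesis were closer to the other nuclei, with *Paics* at 1.38, *Gart* at 1.24 and *Impdh2* at 1.03 times (0.983 to 1.07). Of the chromatin genes, 7 of 17 were at least 1.5 times higher, led by *Chaf1b*, a subunit of the chromatin assembly factor that deposits histones behind the fork, at 54.5 against 21.6 CPM, or 2.52 times (2.35 to 2.71). *Uhrf1*, which brings the maintenance methyltransferase to newly copied DNA, was at 234 against 111 CPM, and the methyltransferase *Dnmt1* itself at 279 against 221 CPM, ratios of 2.11 and 1.27. *Slbp*, which binds histone mRNA, was at 1.84 times, while *H2az1*, a variant histone gene, was the most abundant of the list and stood at 1657 against 1784 CPM.

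**Figure D2:**
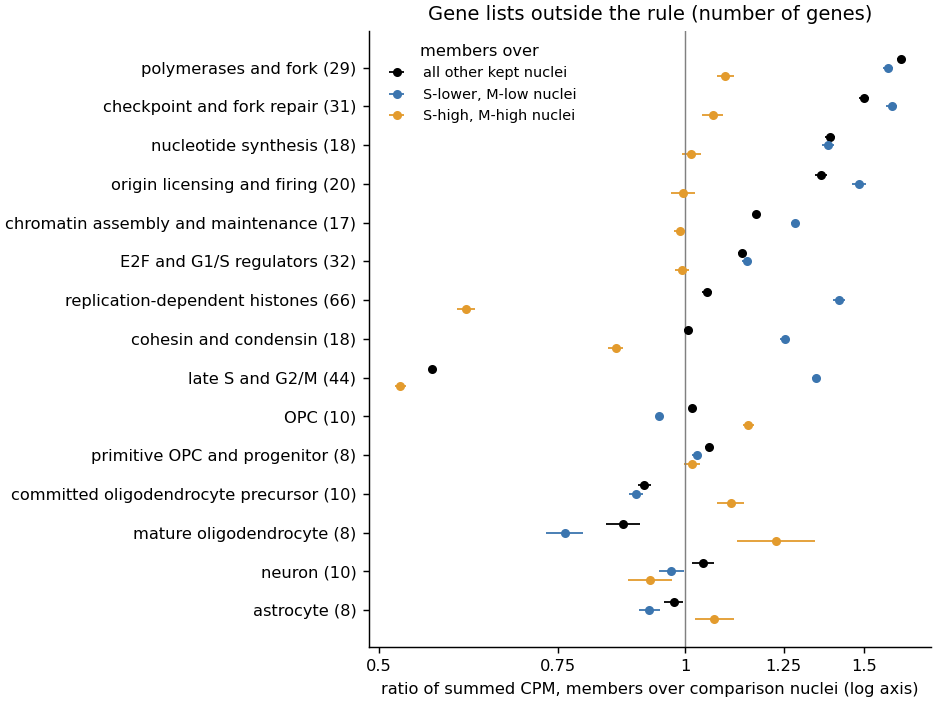
Ratio of the summed CPM of each gene list (x axis, logarithmic) in the S-high M-low nuclei over all other kept nuclei, over S-lower M-low nuclei and over S-high M-high nuclei, with 95% intervals for counting error and the number of genes in brackets. The 4 replication lists lie above 1 against the first and second comparison groups, while the late S and G2/M list lies at 0.564 against all others and at 1.34 against the S-lower M-low nuclei.

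Among the regulators of the G1/S border, *Ccne1*, *Myb* and *E2f1* had the highest ratios. *Ccne1* (cyclin E1; chromosome 7 from 37797404 to 37808264, minus strand) was at 54.7 CPM in the chosen nuclei, 47.3 in the S-high M-high, 22 in the S-lower M-low and 13.4 in the S-lower M-high nuclei. Its ratio over all others was 3.1 times (2.88 to 3.34). *E2f1* (chromosome 2 from 154401326 to 154411812, minus strand), an activator E2F, was at 45.7, 29.6, 20.1 and 15.4 CPM in the same order, or 2.61 times (2.41 to 2.82). Both had their highest level in the chosen nuclei and their lowest in the S-lower M-high nuclei. For *Ccne1* the intervals of the chosen (51.4 to 58.1 CPM) and the S-high M-high nuclei (41.4 to 53.9 CPM) overlapped. *E2f2*, *E2f7* and *E2f8* were at 2.17, 2.16 and 2.08 times, *E2f3* at 1.43, and *E2f4* and *E2f5* at 1.1 and 0.695. *Myb*, at 20.6 CPM against 6.69, had a ratio of 3.07 times (2.72 to 3.47). In all, 9 of the 30 genes of the list with at least 5 CPM were at least 1.5 times higher.

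The D cyclins and their kinases, which act earlier in G1, had ratios between 0.889 and 1.33. *Ccnd1* was the most abundant gene of the list, at 1283 CPM in the chosen nuclei and 1247 CPM in the others, or 1.03 times (1.02 to 1.04), and *Cdk4* was at 1.1, *Cdk6* at 1.33, *Ccnd2* at 1.16 and *Ccnd3* at 0.889 times. Among the CDK inhibitors, *Cdkn1b* (p27) was at 59.5 against 82.9 CPM, and *Cdkn2c* and *Cdkn2d* were both at 0.675 times. In quintiles 1 to 4 of S share *Cdkn1b* was at 64.4 to 67.2 CPM with a low M share. With a high M share it was at 91.3 to 95.6 CPM in these quintiles and at 71.8 CPM in quintile 5. Against the S-lower M-low nuclei *Cdkn2c* and *Cdkn2d* were higher, at 1.27 and 1.18 times. *Cdkn2a* was at 133 against 129.8 CPM. *Cdkn1a* (p21) was at 25.3 against 17.3 CPM, or 1.47 times (1.33 to 1.62), but at 1.16 times the S-lower M-low nuclei. Among nuclei with at most 5% mitochondrial UMIs its ratio over the others was 1.12.

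Genes of the replication checkpoint and of fork repair summed to 1965 CPM in the chosen nuclei and 1311 CPM in the others, or 1.5 times (1.48 to 1.52), and 13 of the 30 with at least 5 CPM were at least 1.5 times higher. *Brca1* (2.11) and its partner *Bard1* (2.12), the nuclease *Exo1* (1.94) and the mismatch repair gene *Msh6* (1.81) were among these. The kinase *Chek1* was at 1.58 times, whereas its upstream kinase *Atr* was at 1.03 times (0.961 to 1.09) and *Wee1*, which holds CDKs inactive, at 1.04 times (0.96 to 1.12). The Fanconi genes *Fancd2* and *Fanci* stood at 1.27 and 1.16. Cohesin and condensin genes summed to 3110.4 against 3089 CPM. Of its 18 genes only *Ncapg2* of condensin II was at least 1.5 times higher, at 162 against 86.3 CPM, while *Ncapg* of condensin I was at 0.92 times. *Esco2*, which acetylates cohesin in S phase, was at 1.44 and *Rad21*, a cohesin subunit, at 0.678 times.

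The replication-dependent histone genes did not stand out against all other nuclei under the rule, which asks for a low M share. The 66 genes found by name summed to 1732 CPM in the chosen nuclei and 1649.5 CPM in the others, or 1.05 times (1.04 to 1.06), and of the 32 with at least 5 CPM, 1 was at least 1.5 times higher and 2 were at least 1.5 times lower. Their order over the groups differed from that of the replication genes. They were highest in the S-high M-high nuclei, at 2844 CPM, followed by the S-lower M-high nuclei at 1800.3, the chosen nuclei at 1732 and the S-lower M-low nuclei at 1222 CPM. Against the S-high M-high nuclei, 24 of 32 were at least 1.5 times lower in the chosen nuclei, where 2.08% of all genes were. Against the S-lower M-low nuclei, 15 of 32 were at least 1.5 times higher and 0 at least 1.5 times lower, where 2.69% and 0.717% of all genes were. *H1f5*, a linker histone gene and the most abundant of the family, was at 394 CPM in the chosen nuclei, 688 in the S-high M-high, 192 in the S-lower M-low and 292 in the S-lower M-high nuclei. *H1f4* was at 209.6, 413, 141 and 247 CPM, and the core gene *H2ac24* at 173, 269.9, 98.8 and 149 CPM in the same order. Since most histone mRNAs lack a poly(A) tail, on which this chemistry primes, and several of the genes are near-identical copies, these levels are uncertain gene by gene.

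The label of S-phase nuclei can be set beside these values. The markers *Mcm6*, *Dtl* and *Ccne2* belong to the rule. Their higher levels, also on UMIs that had not chosen the nuclei, therefore describe the choice and do not bear on the label. Of the genes outside the rule, all 29 fork genes had ratios above 1 over all other nuclei, and of the E2F and G1/S regulators 23 of 30 did and 7 were below 1. Of all 10745 genes compared, 5226 had ratios above 1. The histone genes, which are known to be transcribed within S phase, were at 1.05 times (1.04 to 1.06) the level of all others and at 0.609 times (0.597 to 0.621) that of the S-high M-high nuclei. They were at 1.42 times (1.4 to 1.44) the level of the S-lower M-low nuclei. The ratio of the histone genes over all others varied with the settings. It was 1.22 (1.21 to 1.23) with no M share threshold and 1.16 (1.14 to 1.19) with at most 5% mitochondrial UMIs. It was 1.02 for the top 30% of S share, and 1.02 with the other nuclei weighted to the clusters of the chosen ones. The ratio was thus higher without the choice of a low M share, and the cause was not tested. DNA content was not measured, so late G1 and S phase cannot be told apart, and these nuclei are called S-high M-low by their rule.

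The genes of late S phase and G2/M outside the rule were lower than in all other nuclei, a direction that follows the choice of a low M share and is given as a description. The 44 genes summed to 3542 CPM in the chosen nuclei and 6280.5 CPM in the others, or 0.564 times (0.56 to 0.568), and 29 of 44 were at least 1.5 times lower. Against the S-lower M-low nuclei, in which the 6 M genes summed to 236 CPM against 252 CPM in the chosen nuclei, the same list was at 1.34 times (1.33 to 1.36), with 15 of 44 genes at least 1.5 times higher and 1, *Ccnb2*, at least 1.5 times lower. Of all genes, 2.69% were at least 1.5 times higher and 0.717% at least 1.5 times lower in that comparison. *Top2a*, which untangles copied DNA, was at 529 CPM in the chosen nuclei, 339 in the S-lower M-low, 998 in the S-lower M-high and 1019.7 in the S-high M-high nuclei. The proliferation marker *Mki67* was at 314, 212, 574 and 626 CPM, and *Ccna2* (cyclin A2) at 92.8, 61.8, 170.3 and 157 CPM in the same order. Each of these 3 genes was thus above the S-lower M-low nuclei and below both groups with a high M share. The chosen nuclei also varied widely among themselves for this list, with quartiles of 2004 and 4779.7 CPM and a median of 3169 CPM.

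Across all genes outside the rule, 236 of 10745 were at least 1.5 times higher in the chosen nuclei and 145 at least 1.5 times lower. The 15 highest ratios among genes with at least 20 CPM included 9 genes of the cell cycle lists. The first was *Ung* (chromosome 5 from 114268417 to 114277384, plus strand), whose product removes uracil from DNA, at 51.3 CPM in the chosen nuclei, 25.7 in the S-lower M-low, 20.6 in the S-high M-high and 10.2 in the S-lower M-high nuclei. Its ratio was 3.26 times (3.01 to 3.52) over all others, and it was the gene of the 15 that differed most from the S-high M-high nuclei, at 2.49 times. *Slfn9*, of the schlafen family, whose members share sequence so that its count is uncertain, followed at 61.7 against 19.6 CPM, or 3.14 times (2.93 to 3.37). *Ccne1*, *E2f1* and *Chaf1b*, described above, came next. The others were *Fam111a* (2.52), a protease that acts at replication forks, *Zfp367* (2.36), *Dna2*, *E2f7*, *Bard1*, *Uhrf1*, *Brca1*, the BRCA1-bound helicase *Brip1* (2.1), *E2f8* and *Mybl2* (2.08). Against the S-high M-high nuclei *E2f7* was lower, at 0.883 times, and the rest besides *Ung* lay between 1.05 and 1.54. Against the S-lower M-low nuclei all 15 had ratios between 1.89 and 2.55.

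The 10 lowest ratios included 5 genes of the late S and G2/M list. *Ube2c*, the ubiquitin-conjugating enzyme of the anaphase-promoting complex, was at 79.8 CPM in the chosen nuclei and 395 CPM in the others, or 0.202 times (0.192 to 0.212). *Aspm*, a spindle pole gene, was at 31.4 against 148 CPM, *Cep89*, a centriole gene, at 6.55 against 30.2 CPM, and *Cenpa*, the centromeric histone, at 45.8 against 199.9 CPM. The remaining genes were *Gas2l3*, *Kif2c*, *Prr11*, *Pttg1*, *Cdc25c* and *Kif20a*, with ratios from 0.30 to 0.373. In the S-lower M-low nuclei most of these were as low as in the chosen nuclei, since the ratios of *Aspm*, *Gas2l3*, *Kif2c*, *Prr11*, *Cdc25c* and *Kif20a* to those nuclei lay between 0.902 and 1.09. *Cenpa* and *Pttg1*, the latter encoding securin, were lower also in that comparison, at 0.554 and 0.577 times, as were *Cep89* and *Ube2c* at 0.706 and 0.723 times.

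**Figure D3:**
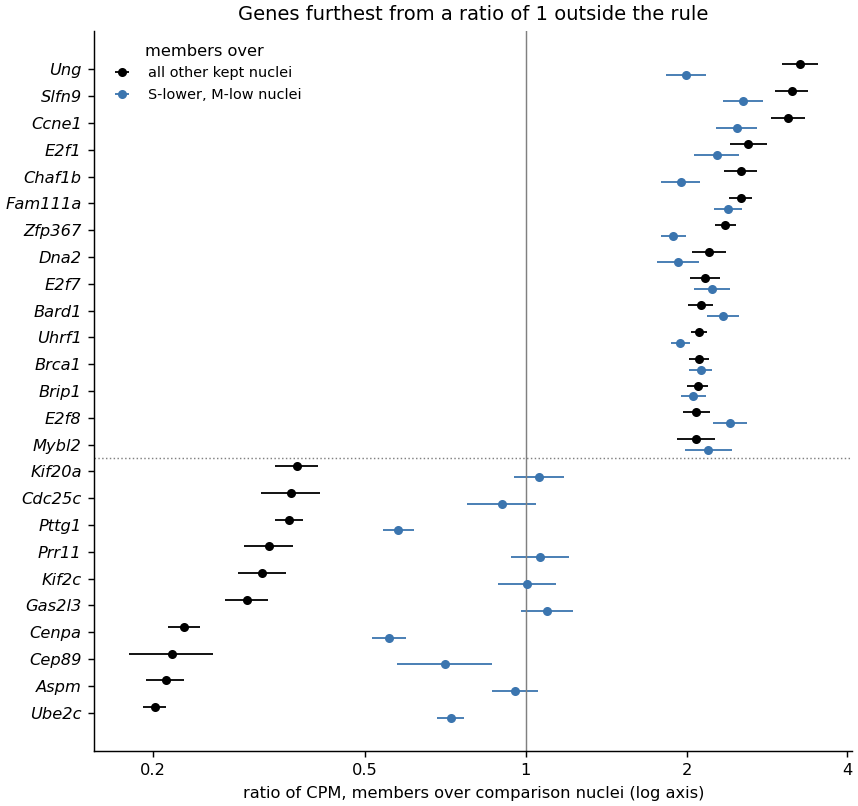
Ratio of CPM (x axis, logarithmic) of the 15 genes with the highest and the 10 with the lowest ratio outside the rule, with 95% intervals for counting error. Black points are ratios over all other kept nuclei and blue points over the S-lower M-low nuclei, against which the 15 upper genes stay at 1.89 or more while 6 of the 10 lower genes lie between 0.902 and 1.09.

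Promoter sequences are shown because textbook promoter elements are known for some genes of both groups. E2F factors bind letters such as TTTCCCGC, TTTGGCGC, TTTCGCGC and TTTGCCGC, and the complexes that act on G2/M genes bind the cell cycle homology region (CHR), here searched as TTTGAA and TTCGAA. Both strands were searched in the 250 bases before and the 50 bases after the start of the canonical transcript, in GRCm39 with GENCODE vM39 starts, for 10736 of the 10745 genes. E2F letters were found in 4.22% of all these promoters, in 31 of 234 (13.2%) of the genes at least 1.5 times higher and in 6 of 145 (4.14%) of those at least 1.5 times lower. CHR letters were found in 15.3% of all promoters, 12.4% of the higher and 46.9% of the lower genes. Of the 84 replication genes outside the rule 18 (21.4%) had E2F letters, and of the 44 late S and G2/M genes 26 (59.1%) had CHR letters. Of the 12 S genes of the rule 6 had E2F letters, and of its 6 M genes 3 had CHR letters. These matches are descriptions of the letters, not binding sites.

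The stretch before the start of *Mcm6*, with 3 E2F matches of which the first 2 overlap, and windows that span or follow the starts of *E2f1*, *Cdc6* and *Dtl* are printed 5′ to 3′ with the E2F letters of either strand in capitals, at GRCm39 *Mcm6* chr1:128287473-128287562 (minus strand), *E2f1* chr2:154411783-154411812 (minus strand), *Cdc6* chr11:98798647-98798676 (plus strand) and *Dtl* chr1:191307650-191307679 (minus strand).
Mcm6: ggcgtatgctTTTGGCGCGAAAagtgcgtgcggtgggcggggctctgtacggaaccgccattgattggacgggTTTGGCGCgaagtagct
E2f1: tttcGCGGCAAAaaggaTTTGGCGCgtaaa
Cdc6: gaaggctgaagtagagcggcTTTGGCGCga
Dtl: aaagcgtgacgtcagTTTGGCGCggagttt
In the *E2f1*, *Cdc6* and *Dtl* windows all matches lie after the start, within the first transcribed bases. *Ccne1*, *Ccne2*, *Ung* and *Chaf1b* had none of these letters in the window searched, which says only that those exact letters are not there. Of the 15 genes with the highest ratios, 4 had E2F letters.

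For contrast, the windows of *Top2a*, *Aspm*, *Cenpf* and *Ube2c*, all lower in the chosen nuclei than in the others, are printed with the CHR letters of either strand in capitals, at *Top2a* chr11:98915122-98915201 (minus strand), *Aspm* chr1:139382505-139382534 (plus strand), *Cenpf* chr1:189420264-189420293 (minus strand) and *Ube2c* chr2:164611808-164611837 (plus strand).
Top2a: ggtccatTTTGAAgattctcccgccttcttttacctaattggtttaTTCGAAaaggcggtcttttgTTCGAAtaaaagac
Aspm: ggaggcgcgataTTTGAAccgagcaaaagc
Cenpf: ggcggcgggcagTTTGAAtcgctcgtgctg
Ube2c: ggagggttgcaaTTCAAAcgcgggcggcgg
*Cenpf* is one of the M genes of the rule, at 74.1 against 380.4 CPM. Of the 10 genes with the lowest ratios, 7 had CHR letters.

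Within the nuclei of low M share, the levels were also followed over 5 bins of S share, each holding the nuclei of 1 quintile of S share over all kept nuclei, with the chosen nuclei as bin 5. The bins held 828, 500, 618, 1053 and 1460 nuclei. The replication genes outside the rule stood at 5043, 7453, 8681, 10016 and 11343 CPM from bin 1 to bin 5. *Ccne1* stood at 8.28, 17.7, 22.5, 32 and 54.7 CPM, and *E2f1* at 6.92, 14.4, 22.3, 29.3 and 45.7 CPM. All of these were higher in each bin than in the one before, and the step for both genes was larger into bin 5 than into bin 4. The S genes of the rule, which set the bins, also took a larger step into bin 5, with 1180, 1578 and 2315 CPM in bins 3 to 5. *Uhrf1* ran from 31.5 to 234 CPM, *Brca1* from 11 to 155 CPM and *Slfn9* from 4.61 to 61.7 CPM.

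The late S and G2/M genes went in opposite directions at low and at high M share. With a low M share they stood at 1206 CPM in bin 1 and 3542 CPM in bin 5, and with a high M share at 8693 CPM in bin 1 and 6749.5 CPM in bin 5. The histone genes were higher with S share in both, from 791 to 1732 CPM with a low and from 1643 to 2844 CPM with a high M share. *Mki67* with a low M share was at 75.3 CPM in bin 1 and 314 CPM in bin 5. *Cdkn1a* did not follow this order, with 31.8, 17.2, 16.9, 20.5 and 25.3 CPM, and was highest in bin 1, the nuclei with few transcripts of either kind. *Ccnd1* lay between 1249.6 and 1397 CPM over the 5 bins, and *Cdkn1b* between 59.5 and 67.2 CPM. The median depth of the bins ran from 10479 UMIs in bin 1 to 13484 in bin 4, and its part in these levels was not tested.

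**Figure D4:**
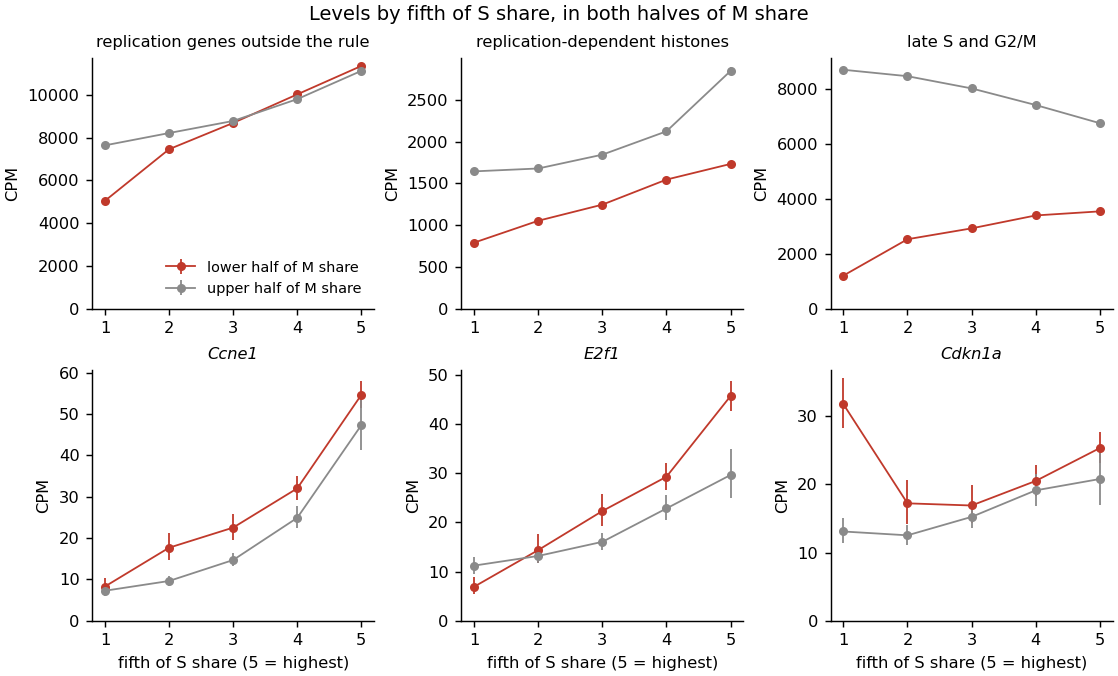
Level in CPM (y axes, from 0) of 3 gene lists and 3 genes by quintile of S share (x axes, 5 is the highest), in nuclei of the lower and upper 50% of M share, with 95% Poisson intervals. The lower-M nuclei of quintile 5 are the chosen nuclei, in which *Ccne1* and *E2f1* reach 54.7 and 45.7 CPM.

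The OPC genes as a whole were at nearly the same level in the chosen nuclei as in the others, 7743 against 7632 CPM, or 1.01 times (1.01 to 1.02). None of the 10 was at least 1.5 times higher or lower, where 2.2% and 1.35% of all genes were. The list was at 0.943 times (0.938 to 0.949) the level of the S-lower M-low nuclei. Against the S-high M-high nuclei it was at 1.15 times (1.14 to 1.17). *Lhfpl3*, one of the most abundant, was at 2147 against 1922 CPM, *Sox6* at 2297 against 2295 CPM and *Olig1* at 671 against 609.8 CPM. The receptor *Pdgfra* was at 214 against 262 CPM, or 0.816 times (0.79 to 0.843), *Olig2* at 250.5 against 300.2 CPM, and *Sox10* at 61.8 against 91.4 CPM, or 0.677 times (0.637 to 0.718). With the other nuclei weighted to the clusters of the chosen ones, the ratio was 0.917 for *Pdgfra* and 0.803 for *Sox10*. Genes of primitive OPCs and progenitors were at 1.05 times (1.04 to 1.06) the level of the others, committed oligodendrocyte precursor genes at 0.912 times (0.899 to 0.925) and mature oligodendrocyte genes at 0.868 times (0.835 to 0.902), the latter summing to 155 CPM.

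Summed lists of markers of other cell types were low in both groups or differed little, but single genes differed more. The neuronal list was at 369 against 354 CPM and the astrocyte list at 525 against 539 CPM, of which *Slc1a3* and *Aldoc* gave most, while *Gfap* was at 0.928 CPM and *Aqp4* at 0 UMIs in the chosen nuclei. Microglial genes summed to 7.84 against 7.54 CPM, endothelial genes to 9.23 against 11.3 CPM, and pericyte and fibroblast genes to 0.464 against 0.756 CPM. Single genes of these lists, *C1qa*, *Aif1*, *Cldn5*, *Stmn2* and *Slc17a7*, were at 0 UMIs in the chosen nuclei. Other genes of the same lists had UMIs there, as the sums show. Of the 4 neuronal genes with at least 5 CPM, 1 was at least 1.5 times higher, where 2.2% of all genes were. The only endothelial gene with at least 5 CPM was at 0.344 times. In *Trp53*-deleted cells, 14 genes known as p53 targets, *Cdkn1a* among them, summed to 473 against 492 CPM, feedback and ETS genes of the ERK pathway to 1168 against 1272 CPM, and immediate early and heat shock genes to 1312 against 1177 CPM.

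The chosen nuclei were spread over most clusters of the library. When all variable genes were used, the highest share of chosen nuclei in a cluster was 24.6% (22.6 to 26.6). The clustering described next left out the genes of the rule. Genes outside the lists that vary with the M share could still take part in it. When the nuclei were clustered without the rule genes, the cell cycle lists and the histone genes, they fell into 7 clusters, numbered 0 to 6 by size, with 1831, 1822, 1712, 1340, 1210, 817 and 185 nuclei. The chosen nuclei made up 20.4% of cluster 0 (95% exact binomial interval 18.5 to 22.3), 24.5% of cluster 1 (22.6 to 26.6), 18.9% of cluster 2 (17.1 to 20.9) and 17.6% of cluster 3 (15.6 to 19.8). Cluster 6 held 13.5% (8.94 to 19.3) and cluster 5 6.61% (5.0 to 8.54), with a median depth of 29968 UMIs in cluster 5 against 10011 to 18388 in the rest. Cluster 4 held 1 chosen nucleus of 1210. Only 5.21% of cluster 4 had a low M share although no cell cycle gene of the lists had been used to build it, against 30.7% to 82.3% of the other clusters.

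Clusters 0 to 3, which together hold most of the chosen nuclei, differ in the receptor genes *Pdgfra* and *Egfr*. Cluster 2 had 15 CPM of *Pdgfra* and 238 CPM of *Egfr*, cluster 3 had 145 and 100.2 CPM, and clusters 0 and 1 had 304 and 321 CPM of *Pdgfra* with 3.44 and 2.86 CPM of *Egfr*. Within each of these clusters the replication genes outside the rule were higher in the chosen nuclei than in the cluster's other nuclei, by 1.29, 1.34, 1.29 and 1.35 times in clusters 0 to 3, 1.249 times in cluster 5 and 1.64 times in cluster 6. *Ccne1* was 2.17 times higher in cluster 0 (1.83 to 2.57) and 3.48 times in cluster 3 (2.79 to 4.33), and *Ung* 2.0 times in cluster 0 and 4.97 times in cluster 2. The late S and G2/M genes were at 0.932 times in cluster 0, where 82.3% of nuclei have a low M share, and at 0.527 to 0.737 times in clusters 1, 2, 3, 5 and 6. Over these clusters histone genes ranged from 0.919 times in cluster 1 to 1.9 times in cluster 6, which holds 25 chosen nuclei.

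**Figure D5:**
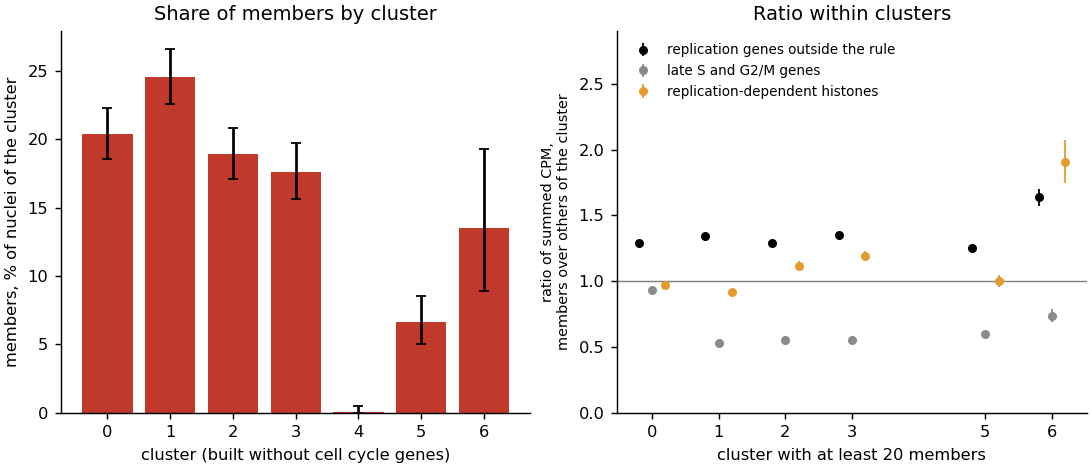
Left, chosen nuclei as a percentage of each cluster, with 95% exact binomial intervals. The clusters were built without the rule genes, the cell cycle lists and the histone genes. Right, ratio of summed CPM of the chosen over the other nuclei of the same cluster for 3 gene lists, in clusters with at least 20 chosen nuclei; the replication genes lie above 1 in each of these, from 1.249 to 1.64.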

How the data were processed

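The only library used holds nuclei of cultured BB-p53n OPCs, sequenced on the 10x platform with 3' capture at the poly(A) tail. The values are counts of UMIs for each gene in each barcode, which the authors deposited without normalization. The submitters' processing notes name Cell Ranger 8.0.1 and the mm39 build, and gene positions are those of GENCODE vM39 on GRCm39, the same build. The library has 154375410 UMIs in 33696 genes, 141138093 of them in the nuclei with 2000 to 8000 detected genes and 19387803 in the chosen nuclei. CPM, ratios and exact intervals were computed from UMIs summed over nuclei with scipy 1.17.1. No genes were tested, and those with at least 5 CPM over all kept nuclei outside the rule were compared by ratio. The genes named are those of the rule and of 20 lists, the 15 highest and 10 lowest ratios among genes with at least 20 CPM, and the histone genes; some genes of the lists are not reported here by name. Members and lists were chosen with earlier results of these data known. Clusters came from Seurat 5.3.0 in R 4.3.3 with the settings of the study's methods (scale factor 1000, 3000 variable genes, total counts regressed out, the first 20 principal components, 200 neighbors, resolution 1), after the rule genes, the cell cycle lists and the histone genes had been left out of the variable genes. Doublets were not removed, since the automatic threshold of Scrublet in scanpy 1.11.5 called 0 of 8917 nuclei and so had not worked. The ratio and interval computations were tested on simulated counts. The alternatives tried were other ranges of detected genes, a limit of 5% mitochondrial UMIs, exclusion of nuclei in the top 8% of Scrublet score, other thresholds, thinning, a random 50% of the UMIs, weighting of the other nuclei, means per nucleus, other filters on CPM and other clusterings.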

Additional observations from a re-analysis of the deposited data

How the results depend on the processing

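The replication genes outside the rule (ratio 1.33) stayed above 1 and the late S and G2/M genes (0.564) below 1 over all other nuclei under every alternative run for them. A value counts as moved where it left the counting interval of the value reported, which is narrow. The 3 ratios of the replication genes, the late S and G2/M genes and the OPC genes were, in this order, 1.29, 0.599 and 0.992 with nuclei chosen at 5000 UMIs, 1.33, 0.553 and 1.03 with mean log values in place of summed shares, 1.36, 0.595 and 0.967 for the top 10% of S share, 1.31, 0.542 and 1.02 for the top 30%, 1.34, 0.668 and 0.982 with no M share threshold, 1.31, 0.613 and 0.991 with the other nuclei weighted to the clusters of the chosen ones, 1.35, 0.60 and 1.01 as means of CPM per nucleus, and 1.34, 0.551 and 1.02 after removal of nuclei in the top 8% of Scrublet score. With at most 5% mitochondrial UMIs the replication and the late S and G2/M ratios were 1.35 and 0.532. With a narrower range of detected genes the late S and G2/M ratio was 0.556 and the OPC ratio 1.02, weighting to the depth of the chosen nuclei gave 0.61 and 1.06, and choosing on a random 50% of the UMIs gave a replication ratio of 1.32. The ratio of the OPC genes lay on both sides of 1, so no direction is read from it.

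The number of genes at least 1.5 times higher, 236, was 453 with at most 5% mitochondrial UMIs, where only 338 nuclei were chosen, 535 of 13769 genes with at least 1 CPM and 120 of 7337 genes with at least 20 CPM, and the number at least 1.5 times lower, 145, was 317, 335 and 87. The median depth of the chosen over the other nuclei, 0.852, was 0.932 with mean log values, 0.806 for the top 10% and 0.883 for the top 30% of S share. The highest share of chosen nuclei in a cluster, 24.5%, was 15%, 32.1% and 30.7% for the top 10%, the top 30% and no M share threshold, and 19% at a resolution of 0.4. The causes were not tested. In all, 44 of 88 such values moved. The OPC ratio fell below 1 with nuclei chosen at 5000 UMIs, for the top 10% of S share, with no M share threshold and with weighting to clusters, and no other of these ratios changed its side of 1. No paired analysis was possible because the library of BB-p53n OPCs is 1 sample and no groups of samples were compared. The precision is limited by about 28 UMIs of the S genes per chosen nucleus and by the lack of a second library.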

Other observations

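Some genes outside the lists were also higher in the S-high M-low nuclei than in the others and are named here after their values were seen. *Atad2*, a chromatin gene, was at 393 against 194 CPM, or 2.02 times (1.97 to 2.07). *Grin2a*, a subunit of the NMDA receptor, was at 45.1 against 23.6 CPM, or 1.91 times (1.77 to 2.06). *Grin2a* was also 1.86 times the level of the S-high M-high nuclei. Neither gene was compared within clusters. *Nrg3*, a neuregulin gene, was at 87.4 against 49.2 CPM, but its level differed widely between clusters, with 176 CPM in cluster 1 and 109.6 CPM in cluster 3 against 1.93 and 2.36 CPM in clusters 0 and 2. Within clusters 0, 1, 2, 3 and 5 its ratio of chosen over other nuclei was 0.688, 1.3, 0.209, 1.22 and 0.986. The histone deacetylase gene *Hdac9* was at 81.9 against 40.6 CPM and the kinase gene *Rps6ka5* at 58 against 29.9 CPM, and with the other nuclei weighted to the clusters of the chosen ones their ratios were 1.86 and 1.76. The neuronal list as a whole stood at 369 against 354 CPM.

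The share of genes at least 1.5 times higher was also taken by gene length. Of the 1976 compared genes of 100 kb and over, 3.49% were at least 1.5 times higher and 0.405% at least 1.5 times lower. Of the 1898 genes under 10 kb, these shares were 1.32% and 1.58%. Of the 6862 genes between, they were 2.04% and 1.56%. The median ratio of the genes of 100 kb and over was 1.02 over all other nuclei and 0.997 over the S-lower M-low nuclei. The difference between the length classes was not tested.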
